A study of Rattus norvegicus with 10 samples.

Results

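The 8 features described here are the mitochondrial tRNA genes that lie on the heavy strand downstream of mt-nd2, in rat fetal cerebral cortex. In order of position they are tRNA-Asp, tRNA-Lys, tRNA-Gly, tRNA-Arg, tRNA-His, tRNA-Ser-AGY, tRNA-Leu-CUN and tRNA-Thr. The rule was one of position: all features of the mitochondrial chromosome (MT) listed on the plus strand, under 100 bases long and starting above position 5008. They are 8 of 26404 listed features, 8 of the 37 on MT and 8 of its 22 tRNAs. The feature just outside the position limit was tRNA-Trp, which ends at 5008 and held 12 reads over all libraries. The length limit separated cleanly, since the longest tRNA had 75 bases and the shortest other MT gene had 204.

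RNA-seq was done on the right cerebral cortex of 10 Sprague Dawley fetuses at embryonic day 21. The dams of 5 fetuses had received oxytocin at 100 mcg/kg intravenously, and the dams of the other 5 an equal volume of saline. Tissue was taken 24 h later, and each fetus came from a separate dam, per the submitters' design text. The libraries were made by oligo-dT selection, which takes up transcripts with a poly(A) tail, and all library descriptions name the same sequencing run. Fetal sex was not among the labels used here. Libraries held from 18555172 to 30404127 assigned reads, and the deepest was oxytocin replicate 1. Nuclear identifiers could not be paired with gene names, so the tissue was not checked against marker genes, and the nuclear genes that process, modify or charge mitochondrial tRNAs were not analysed here.

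Mammalian mitochondrial DNA is transcribed from both strands into long transcripts in which tRNAs lie between the protein genes. In the tRNA punctuation model, cleavage at the 5′ end of each tRNA by mitochondrial RNase P and at its 3′ end by ELAC2 frees the tRNA and the mRNAs on either side. The mRNAs then receive a poly(A) tail, whereas a finished tRNA receives a CCA end. A short, structured and heavily modified tRNA without a poly(A) tail may therefore be poorly captured by an oligo-dT library. Reads inside a tRNA feature can come from a finished tRNA, from a transcript that still carries it, or from an antisense transcript. These sources cannot be told apart here, because read length and the handling of strand are not given in the sources used here.

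The arrangement of the genes differed between members. tRNA-Asp (ENSRNOG00000031685, MT, 6937 to 7004, 68 bases) and tRNA-Lys (ENSRNOG00000029070, MT, 7693 to 7756, 64 bases) lie on either side of mt-co2, which encodes subunit 2 of cytochrome c oxidase. tRNA-Gly (ENSRNOG00000029389, MT, 9383 to 9450, 68 bases) directly joins mt-co3 and mt-nd3, with 0 bases between. tRNA-Arg (ENSRNOG00000032320, MT, 9800 to 9867, 68 bases) lies between mt-nd3 and mt-nd4l, both encoding subunits of complex I. tRNA-His (ENSRNOG00000033957, MT, 11538 to 11605, 68 bases), tRNA-Ser-AGY (ENSRNOG00000032578, MT, 11606 to 11665, 60 bases) and tRNA-Leu-CUN (ENSRNOG00000031667, MT, 11665 to 11735, 71 bases) form an unbroken block between mt-nd4 and mt-nd5. The last members of that block share position 11665. tRNA-Thr (ENSRNOG00000030339, MT, 15280 to 15346, 67 bases) follows mt-cytb, the gene of cytochrome b, and is the only member with no heavy-strand protein gene after it. Each feature is a single interval on the plus strand, and build Rnor_5.0 is named in the submitters' processing notes.

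Reads on these tRNAs were few. Over the 10 libraries the 8 tRNAs held 1436 reads, against 13913 on all 22 tRNAs. Of the 80 values, 1 was zero (tRNA-Thr in saline replicate 5), where a count of 0 allows up to 3 reads or 0.162 CPM (deposited counts per assigned read, scaled to a fixed library total). tRNA-Gly with 411 reads, tRNA-His with 379 and tRNA-Leu-CUN with 324 together made up 77.6% of the reads of the 8. tRNA-Arg held 114, tRNA-Ser-AGY 83, tRNA-Lys 52, tRNA-Thr 37 and tRNA-Asp 36.

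**Figure D1:**
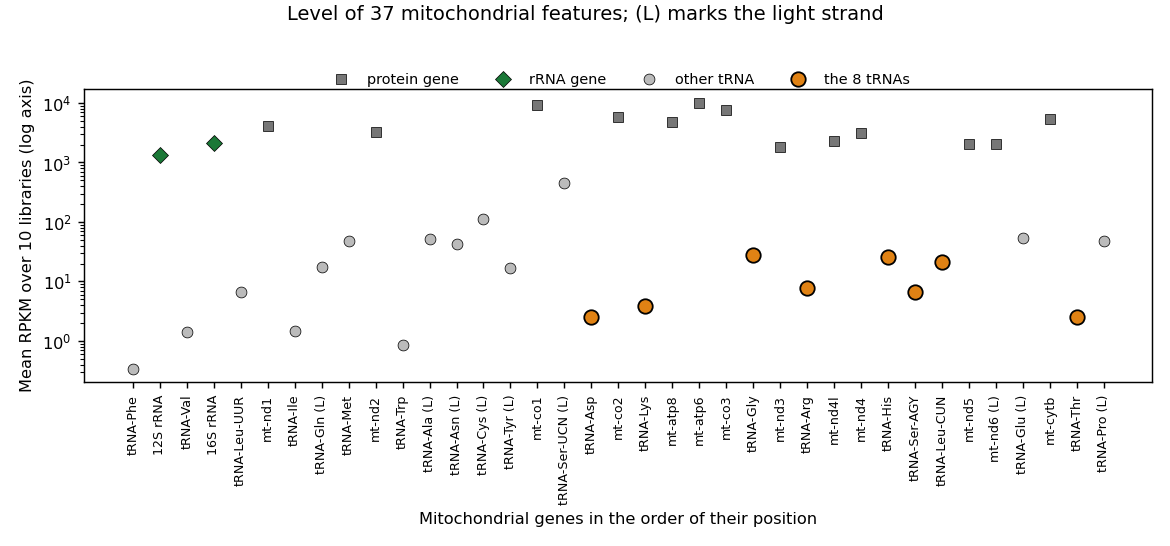
Mean RPKM over the 10 libraries (log axis) for the 37 mitochondrial features in the order of their position, with (L) marking the light strand. The 8 tRNAs lie between 2.52 and 28.2 RPKM, and the heavy-strand protein genes between 1790 and 10113 RPKM.

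Levels were compared between genes in RPKM, that is CPM per kilobase of listed length. tRNA-Gly stood highest at 28.2 ± 5.03 RPKM (SD over the 10 libraries), followed by tRNA-His at 26.0 ± 5.60 and tRNA-Leu-CUN at 21.5 ± 4.31. These neighbours in the order were not separated by their spread: tRNA-Gly was above tRNA-His in 6 of 10 libraries, and tRNA-His above tRNA-Leu-CUN in 8 of 10. A clear step followed, since tRNA-Leu-CUN was above tRNA-Arg (7.73 ± 2.01 RPKM) in 10 of 10 libraries. tRNA-Ser-AGY came next at 6.60 ± 2.35 RPKM, below tRNA-Arg in 6 of 10 libraries. tRNA-Lys reached 3.83 ± 1.17 RPKM, tRNA-Thr 2.52 ± 1.51 and tRNA-Asp 2.52 ± 2.31, with tRNA-Thr and tRNA-Asp not separated.

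Within the His, Ser-AGY and Leu-CUN block, the middle tRNA had the lowest level although all of them lie between the same protein genes. tRNA-Ser-AGY is also the shortest member, and it is known for lacking the D arm of the usual tRNA cloverleaf. The 3 members with the highest levels directly join or overlap the annotated genes on both sides. tRNA-Asp, tRNA-Lys, tRNA-Arg and tRNA-Thr, which have 1 to 3 unannotated bases on either side, had lower levels than those 3. tRNA-Ser-AGY joins its neighbours as well and stood among the lower ones. The rest of the mitochondrial genome did not follow this order: tRNA-Val, joined to both rRNA genes, was at 1.41 ± 0.841 RPKM, and tRNA-Leu-UUR, joined to the 16S rRNA gene and mt-nd1, at 6.59 ± 2.49 RPKM (SD, n = 10).

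Of the other 14 mitochondrial tRNAs, tRNA-Ser-UCN on the light strand had the highest level at 446.9 ± 57.7 RPKM, and tRNA-Phe the lowest at 0.341 ± 0.514 RPKM (SD, n = 10). The 8 light-strand tRNAs held 83.3% of all tRNA reads and the 8 members 10.3%. Of the 13913 tRNA reads, 6600 were on tRNA-Ser-UCN alone. On the light strand, tRNA-Gln (mean 17.7 RPKM) and tRNA-Tyr (17.0 RPKM) lay below tRNA-Gly, tRNA-His and tRNA-Leu-CUN. The other light-strand tRNAs had higher means than all members. tRNA-Ser-UCN is the annotated neighbour of tRNA-Asp, 3 bases before it, and tRNA-Pro on the light strand lies 1 base after tRNA-Thr. Which strand these reads came from was not tested.

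Oxytocin was compared with saline to ask whether fetal tRNA reads differed 24 h after the dam's exposure. None of the 8 tRNAs passed the test. Summed over the 8, the level was 7.37, 6.60, 6.71, 5.50 and 6.68 CPM in oxytocin replicates 1 to 5, and 7.01, 5.78, 6.08, 8.50 and 6.95 CPM in saline replicates 1 to 5. The groups overlapped, with 6.57 ± 0.675 CPM in the oxytocin group and 6.86 ± 1.06 CPM in the saline group (SD over 5 libraries). The lowest library was from the oxytocin group and the highest was saline replicate 4. Without saline replicate 4 the difference between the means moved from -0.295 to 0.114 CPM. Divided by the reads of the 12 heavy-strand protein genes in place of all assigned reads, and scaled to the same fixed total, the sum was 112 ± 12.1 with oxytocin and 134 ± 20.0 with saline (difference -21.6). Divided by all MT reads it was 102 ± 11.0 and 120 ± 18.6 (difference -18.1; SD over 5 libraries), and groups overlapped with either denominator. The 12 heavy-strand protein genes summed to 58693 ± 1086 CPM with oxytocin and 51450 ± 2900 CPM with saline (SD over 5 libraries), and every oxytocin library was above every saline library.

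**Figure D2:**
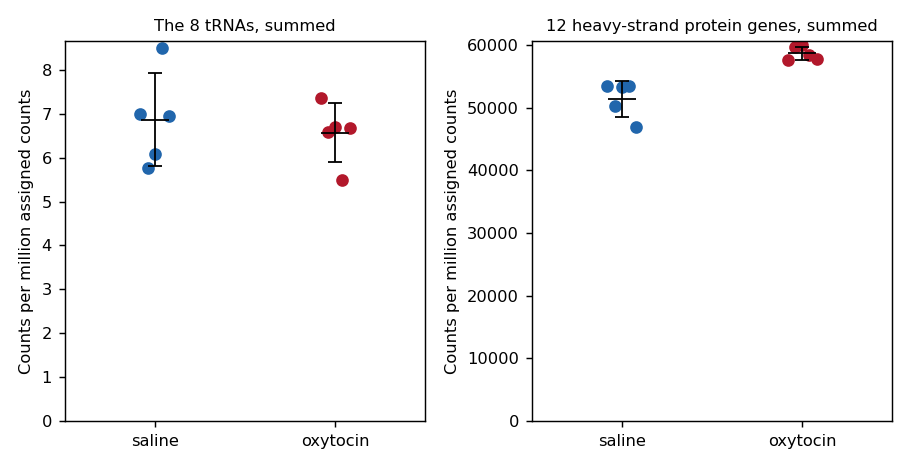
CPM summed over the 8 tRNAs (left) and over the 12 heavy-strand protein genes (right), with 1 point per library and bars giving the mean and SD of 5 libraries. The tRNA sums overlap, from 5.50 to 7.37 CPM after oxytocin and from 5.78 to 8.50 CPM after saline, while the protein-gene sums do not overlap.

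The filter on low counts left 4 of the 8 members among 14400 tested features, namely tRNA-Gly, tRNA-Arg, tRNA-His and tRNA-Leu-CUN. Tested with edgeR's quasi-likelihood model, 0 of these 4 reached an adjusted p under 0.05, as did 0 of all 14400 features (0%), and an unadjusted p under 0.05 was found for 0 of the 4 against 3.57% of all features (514). DESeq2 called 12 features, 8 of them mitochondrial protein genes, and limma called 0; neither called any of the 4, to which DESeq2's independent filtering gave no adjusted p. In a fit without the filter, which holds all 8 members among 20274 features, 0 of 8 reached an adjusted p under 0.05 (0% of all features) and 0 of 8 had an unadjusted p under 0.05 (3.59% of all features). Among the 2817 features of that fit whose mean count lay within the range of the 8, the share was 4.19%. Of the 514 features, 278 were higher after oxytocin, against 167 of 659 with scaling by library size alone, and leaving out saline replicate 5 gave 841.

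Groups overlapped for all 8 tRNAs in CPM. Groups without overlap were found for 0.896% of the filtered features, for 0.779% without the filter and for 1.06% of features in the count range of the 8. By sign, 5 of the 8 fold changes in the fit without the filter were below 0, against 51.5% of all features. Their median log2 fold change was -0.052, where that of all features was -0.003.

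**Figure D3:**
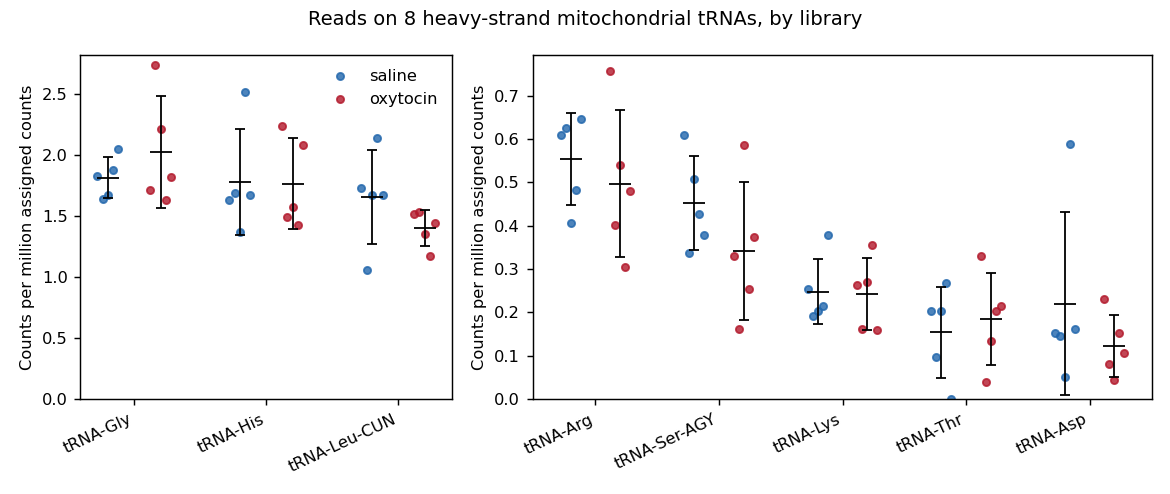
CPM of each tRNA, with 1 point per library and bars giving the mean and SD of 5 saline (blue) or 5 oxytocin (red) libraries; the panels have different scales. Groups overlap for each of the 8, and saline replicate 4 is the high point of tRNA-Asp (0.588 CPM) and tRNA-His (2.51 CPM).

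tRNA-Gly delivers glycine to the mitochondrial ribosome. Its reads numbered 52, 68, 49, 32 and 34 in oxytocin replicates 1 to 5, and 36, 34, 33, 35 and 38 in saline replicates 1 to 5. Oxytocin replicates 2 and 3 lay above all saline libraries in CPM, at 2.73 and 2.21 CPM, and oxytocin replicate 4 lay below them at 1.63 CPM. The estimated log2 fold change, with its SE, came to 0.19 ± 0.17 (edgeR, adjusted p = 0.9997). Without oxytocin replicate 2 it was 0.0457.

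tRNA-His, the histidine tRNA, had 68, 37, 35, 28 and 39 reads after oxytocin and 32, 35, 27, 47 and 31 after saline, in replicate order. The highest value in CPM was saline replicate 4 at 2.51 CPM, followed by oxytocin replicate 1 at 2.24 CPM. Its estimated log2 fold change, with its SE, came to 0.03 ± 0.20 (edgeR, adjusted p = 0.9997). The sign of so small a value was not stable: with limma it was -0.043 and with scaling by library size alone -0.00059.

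tRNA-Leu-CUN, a name given here from the gene order, reads the CUN leucine codons, while tRNA-Leu-UUR serves the others. It had 46, 38, 30, 23 and 27 reads after oxytocin and 34, 22, 33, 40 and 31 after saline, in replicate order. In CPM, oxytocin libraries lay between 1.17 and 1.53, while 4 of 5 saline libraries lay above all of them and saline replicate 2 lay below all of them at 1.06 CPM. The estimated log2 fold change, with its SE, came to -0.20 ± 0.19 (edgeR, adjusted p = 0.9997). It was -0.0912 without saline replicate 4 and -0.335 without saline replicate 2.

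tRNA-Arg, the arginine tRNA, had 23, 10, 12, 6 and 9 reads after oxytocin and 12, 13, 8, 9 and 12 after saline, in replicate order. Both the highest value, 0.756 CPM in replicate 1, and the lowest, 0.305 CPM in replicate 4, came from oxytocin libraries. The estimated log2 fold change, with its SE, came to -0.09 ± 0.27 (edgeR, adjusted p = 0.9997). Its sign turned to 0.02 without oxytocin replicate 4.

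The remaining members were removed by the filter and are given by their reads. tRNA-Ser-AGY, the serine tRNA for AGY codons, had 10, 4, 13, 5 and 7 reads after oxytocin and 12, 7, 10, 8 and 7 after saline, in replicate order. Libraries of both groups reached similar highs, 0.585 CPM in oxytocin replicate 3 and 0.609 CPM in saline replicate 1. Its mean was 0.341 ± 0.159 CPM with oxytocin and 0.452 ± 0.109 CPM with saline (SD over 5 libraries).

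tRNA-Lys, the lysine tRNA, had 8, 4, 6, 7 and 3 reads after oxytocin and 5, 4, 4, 4 and 7 after saline, in replicate order. Its means were 0.242 ± 0.083 and 0.248 ± 0.076 CPM (SD, n = 5 each), a difference far inside the spread of either group. tRNA-Thr, the threonine tRNA, had 10, 1, 3, 4 and 4 reads after oxytocin and 4, 2, 4, 5 and 0 after saline. Its highest value was in the deepest library, at 0.329 CPM. In edgeR's fit without the filter its log2 fold change of 0.30 moved to -0.0802 without oxytocin replicate 1, to 0.00377 without saline replicate 5 and to 0.572 without saline replicate 4.

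tRNA-Asp, the aspartate tRNA, had 7, 2, 1, 3 and 2 reads after oxytocin and 3, 3, 1, 11 and 3 after saline, in replicate order. Saline replicate 4 stood at 0.588 CPM, where the other saline libraries had 0.0507 to 0.162 CPM. The means of 0.123 ± 0.072 CPM with oxytocin and 0.219 ± 0.21 CPM with saline (SD over 5 libraries) include that library. Without it, the log2 fold change in edgeR's fit without the filter moved from -0.71 to 0.03.

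The variation of reads over the 10 libraries, as chi-square per degree of freedom against equal shares of assigned reads, was 0.462 to 2.84 for the 8 tRNAs, where 1 is pure counting noise. It includes any difference between the groups. Pooled over libraries, the ratio of oxytocin to saline reads per assigned read was 1.12 for tRNA-Gly, with a 95% interval of 0.920 to 1.37 (exact binomial, counting error only). For tRNA-His it was 1.01 (0.823 to 1.25) and for tRNA-Leu-CUN 0.862 (0.689 to 1.08). Intervals were wider for the sparse members, as for tRNA-Asp at 0.601 (0.288 to 1.22) and tRNA-Thr at 1.23 (0.612 to 2.56). All 8 intervals included 1. The median ratio of the 12 protein genes, 1.15, lay inside 7 of the 8 intervals and above that of tRNA-Leu-CUN. These intervals leave out the spread between fetuses.

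**Figure D4:**
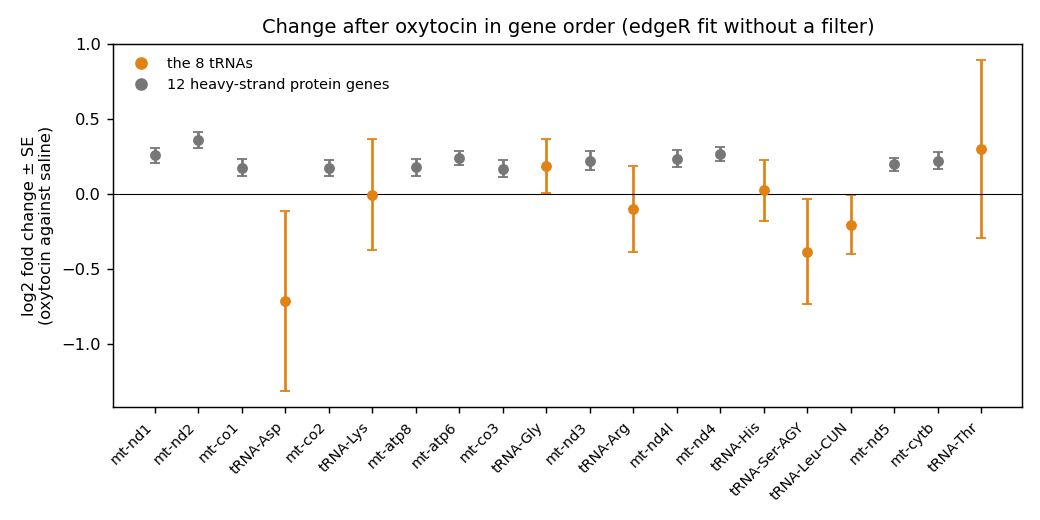
The log2 fold change of oxytocin against saline ± SE for the 8 tRNAs (orange) and the 12 heavy-strand protein genes (grey) in gene order, from edgeR's fit without a filter. The tRNA values run from -0.71 (tRNA-Asp) to 0.30 (tRNA-Thr) with wide errors, both ends moving across 0 when 1 library was left out (0.03 for tRNA-Asp, -0.0802 for tRNA-Thr), and the protein genes lie above 0.

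The protein genes beside the tRNAs give the other side of each junction. With the filter, the log2 fold changes of the 12 heavy-strand protein genes ran from 0.17 to 0.36 with a median of 0.22, and none of them (0 of 12) reached an adjusted p under 0.05 with edgeR. An unadjusted p under 0.05 was found for 12 of the 12, against 3.57% of all features. Oxytocin libraries were above all saline libraries for 6 of 12 in CPM, against 0.181% of tested features. Of the genes that flank a member, mt-nd4 had the highest log2 fold change at 0.27 ± 0.042 (SE; adjusted p 0.162 in edgeR's test) and mt-co3 the lowest at 0.17 ± 0.056 (SE; adjusted p 0.9997).

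Each tRNA was then set against the nearest heavy-strand protein gene on either side, as reads per base in the same library. Such a ratio needs no scaling between libraries. It serves as a sign of junctions that are still joined, but is no direct measure of them: reads that span a tRNA and its neighbour may be left uncounted, a finished tRNA may be captured, and the space that a read fits into differs with the length of the tRNA.

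The flanking genes exceeded the tRNAs by widely different factors. Reads per base in the flanking genes were 99.4 times those in tRNA-His, 120 times for tRNA-Leu-CUN and 167 times for tRNA-Gly. The factor was 258 for tRNA-Arg and 389 for tRNA-Ser-AGY. It reached 1292 for tRNA-Lys, 2327 for tRNA-Thr and 3224 for tRNA-Asp, whose neighbours mt-co1 and mt-co2 averaged 7573 ± 579 RPKM (SD, n = 10). tRNA-His and tRNA-Leu-CUN, at the edges of the block before mt-nd5, thus had the smallest mean factors. tRNA-Asp and tRNA-Thr had the largest, and the spread between libraries did not separate them from each other or from tRNA-Lys. Over the libraries the factor ran from 701 to 2020 for tRNA-Lys, 1047 to 11450 for tRNA-Thr and 802 to 8346 for tRNA-Asp. The value of 11450 is that of saline replicate 5, with 0 reads on tRNA-Thr. tRNA-Gly, highest in level, came after tRNA-His and tRNA-Leu-CUN here. Its neighbours averaged 4704 ± 369 RPKM against 2576 ± 214 RPKM for mt-nd4 and mt-nd5 (SD, n = 10).

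**Figure D5:**
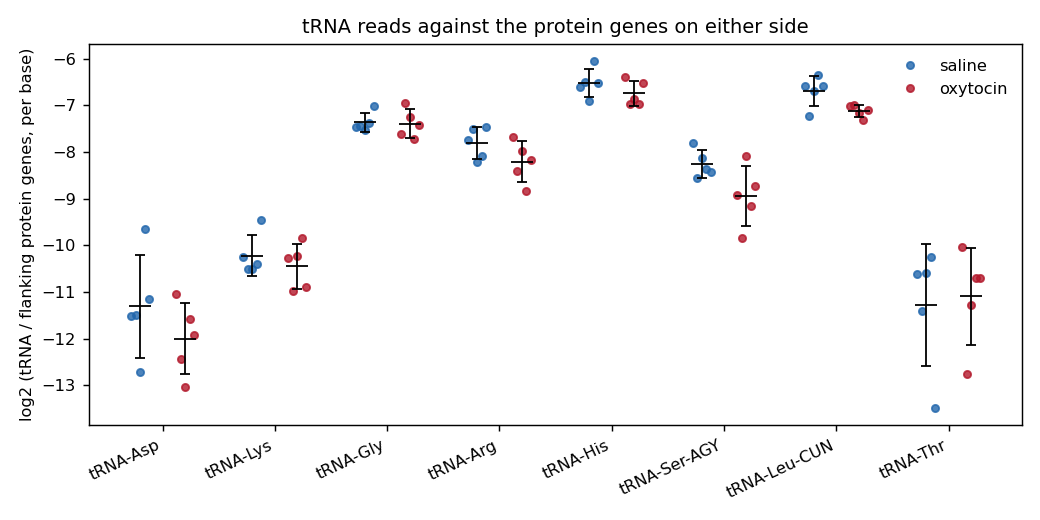
The log2 ratio of reads per base in each tRNA to the mean of its flanking protein genes, with 1 point per library and bars giving the mean and SD of 5 saline (blue) or 5 oxytocin (red) libraries. Ratios run from -6.06 (tRNA-His, saline replicate 4) to -13.5 (tRNA-Thr, saline replicate 5, with 0 reads), and groups overlap for each tRNA.

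Against these flanks, the ratio was lower after oxytocin for 7 of the 8 tRNAs, with a median difference of -0.31 on the log2 scale, and groups overlapped for all 8. The 8 ratios were each tested alone with an exact two-sided permutation test, without adjustment, and 1 of 8 had a p under 0.05. The smallest p that 5 against 5 libraries can give is 0.0079. The ratios are not independent, since tRNA-His, tRNA-Ser-AGY and tRNA-Leu-CUN share both flanking genes and neighbouring ratios share others. A lower ratio also contains the higher level of the flanking genes in these same libraries, with log2 fold changes of 0.17 to 0.27 (edgeR). How much of the lower ratios this makes up was not tested. The ratio was taken for the 8 members alone. The counts of 7 and 1 of 8 therefore have no background share beside them.

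The ratio with a p under 0.05 was that of tRNA-Leu-CUN to mt-nd4 and mt-nd5. It was -7.02, -6.99, -7.16, -7.31 and -7.10 in oxytocin replicates 1 to 5, and -6.58, -7.23, -6.70, -6.35 and -6.60 in saline replicates 1 to 5. Saline replicate 2 lay among the oxytocin libraries, and the other 4 saline libraries lay above all of them. The difference was -0.43 ± 0.16 on the log2 scale (SE; exact two-sided permutation test, p = 0.0397). It was no longer under 0.05 in 7 of 10 repeats that left out 1 library (oxytocin replicates 3, 4 or 5, or saline replicates 1, 3, 4 or 5), and p over all 10 ran from 0.0079 to 0.0794. Over the same libraries, the flanking genes were at 2767 ± 57.7 RPKM with oxytocin and 2386 ± 94.8 RPKM with saline (SD over 5 libraries).

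For tRNA-Ser-AGY, between the same protein genes, the ratio was -8.92, -9.84, -8.09, -9.17 and -8.73 after oxytocin and -7.81, -8.57, -8.13, -8.36 and -8.42 after saline, in replicate order. Oxytocin replicate 3 lay among the saline libraries and the other 4 oxytocin libraries lay below all of them. The difference of -0.69 ± 0.32 (SE) on the log2 scale had a p of 0.0556 (exact two-sided permutation test). Without oxytocin replicate 3 it was -0.909 with an exact p of 0.0079, the only one of 10 repeats leaving out 1 library with a p under 0.05, and p over all 10 ran from 0.0079 to 0.119. The value rested on 4 to 13 reads per library.

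For tRNA-His, the first of the block, the difference was -0.22 ± 0.18 (SE; exact permutation test, p = 0.310). The remaining differences were smaller than or close to their errors, apart from tRNA-Arg at -0.40 ± 0.25 (SE; exact permutation test, p = 0.143). tRNA-Asp gave -0.70 ± 0.60 (SE; exact permutation test, p = 0.286) and tRNA-Lys -0.22 ± 0.29 (exact p = 0.5). Leaving out saline replicate 4 moved tRNA-Asp to -0.283 and tRNA-His to -0.104, leaving out saline replicate 5 moved tRNA-Lys to -0.0292, and leaving out oxytocin replicate 4 moved tRNA-Arg to -0.248. tRNA-Thr gave 0.17 ± 0.75 (exact p = 0.746) and tRNA-Gly -0.03 ± 0.16 (exact p = 0.889). The sign of tRNA-Thr turned with a pseudocount of 2 (-0.0900), without oxytocin replicate 1 (-0.0924) and without saline replicate 5, its library with 0 reads (-0.379). That of tRNA-Gly turned when oxytocin replicate 1, oxytocin replicate 4 or saline replicate 5 was left out (0.0300 to 0.0599). The ratio of tRNA-Gly to mt-co3 and mt-nd3 differed by less than the spread between libraries, at -7.39 ± 0.31 with oxytocin and -7.37 ± 0.20 with saline (SD over 5 libraries).

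The other 14 tRNAs were compared in the same fits. The filter kept 10 of them. In edgeR's fit without the filter, 3 of 14 had an unadjusted p under 0.05 (3.59% of all features) and 0 passed an adjusted p of 0.05. The 3, named after their values were seen, were tRNA-Gln (log2 fold change 0.56 ± 0.25, SE), tRNA-Met (0.47 ± 0.21) and tRNA-Glu (0.30 ± 0.12). tRNA-Met lies directly before mt-nd2, whose log2 fold change in that fit was 0.36 ± 0.056 (SE).

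The summed level of the 8 tRNAs was also compared with every tested feature over the 10 libraries. Among mitochondrial features outside the 8, Pearson's r of log2 CPM was highest for tRNA-Asn (0.61), tRNA-Ser-UCN (0.60) and tRNA-Cys (0.37). These ranked 1129, 1199 and 3197 among the 14400 features, so many features outside MT followed the sum more closely. Outside MT the highest values, 0.95 for ENSRNOG00000007034 and 0.93 for ENSRNOG00000027194, are the top of 14400 features over 10 libraries, and all points share their library and its scaling.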

How the data were processed

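For these 10 RNA-seq libraries the submitters' processing notes name bcl2fastq, STAR 2.0.4b, featureCounts 1.45 and Subread, with build Rnor_5.0; their settings are not given in the sources used here. The deposited count column holds unnormalized reads per gene. In the deposited CPM column each count is scaled by the library's assigned reads to a fixed total (largest deviation 4.18e-11). The deposited RPKM column divides this by the listed length in kilobases (4.73e-11). MT genes were named from the fixed gene order of mammalian mitochondrial DNA; listed strands matched for 37 of 37, and 0 identifiers paired with a symbol in the gene table.

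Counts were filtered with filterByExpr and scaled with TMM. The test was edgeR 4.0.16 (R 4.3.3) quasi-likelihood with default settings after estimateDisp, without covariates, with Benjamini-Hochberg adjustment over all features; SE is the fold change over the root of F. Ratios add 0.5 to the tRNA count and were tested by exact permutation. Log2 CPM for likeness used a prior count of 2. Alternatives were DESeq2 1.42.0, limma 3.58.1, other scalings, filters, denominators and pseudocounts, and leaving out libraries. The fits with the filter were also run on simulated counts, but the outcome is not given here. That run covered neither the members removed by the filter nor the permutation tests. Within-group pairs of libraries differed by 4.08 to 18.3 chi-square per degree of freedom, more than sampling noise, so none was treated as a library deposited in duplicate. Replicates are numbered in accession order. The rule for named genes took all 8 tRNAs, their flanking genes, the highest and lowest other tRNA and the most alike features. Members and lists were chosen with earlier results of these data known.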

Additional observations from a re-analysis of the deposited data

Results flagged for a closer look

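Each group of 5 was checked for a library standing apart, in 34 checks. In 4 of them the gap was above Dixon's 95% limit of 0.71, which chance exceeds in about 1 in 20 groups. Saline replicate 4 stood high for tRNA-Asp (0.588 CPM against 0.0507 to 0.162) and for tRNA-His (2.51 CPM against 1.37 to 1.68). Saline replicate 5 stood high in the log2 ratio to the flanking protein genes for tRNA-Lys (-9.45 against -10.5 to -10.2) and for tRNA-Gly (-7.02 against -7.52 to -7.38). The tRNA-Asp and tRNA-Lys values rest on 11 and 7 reads.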

How the results depend on the processing

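Features past an adjusted p of 0.05 numbered 0 in edgeR's default fit, in its other mode, with limma, under 3 other scalings and 2 other filters and without each library in turn (0 to 0), but 12 with DESeq2 and 6 with DESeq2 without independent filtering; the cause was not tested. The other mode and DESeq2 without independent filtering were chosen after seeing the data, as were the fits without the filter that left out a library. Fits with the default filter tested 4 of the 8 tRNAs, the fit with at least 10 counts in every library 3, and the fit without a filter all 8. None of those tested was called, and DESeq2's independent filtering gave the 4 no adjusted p.

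The log2 fold change of tRNA-His turned to -0.043 with limma and -0.00059 with library size alone, and that of tRNA-Arg ran from -0.326 to 0.0247 and of tRNA-His from -0.0875 to 0.185 without each library. The ratio of tRNA-Ser-AGY to its flanks was -0.643 with a pseudocount of 2 (exact permutation p = 0.0476), and ran from -0.909 to -0.471 without each library (exact permutation p from 0.0079 to 0.119, under 0.05 in 1 of 10). The ratio of tRNA-Thr turned to -0.0900 with that pseudocount and ran from -0.379 to 0.591. Leaving out libraries gave ratio differences of -0.138 to 0.0599 for tRNA-Gly, -0.559 to -0.34 for tRNA-Leu-CUN, -1.05 to -0.283 for tRNA-Asp, -0.371 to -0.0292 for tRNA-Lys, -0.319 to -0.104 for tRNA-His and -0.539 to -0.248 for tRNA-Arg. Fold changes ran from 0.0457 to 0.251 for tRNA-Gly and from -0.335 to -0.0912 for tRNA-Leu-CUN, and without the filter from -1.12 to 0.0342 for tRNA-Asp, -0.158 to 0.188 for tRNA-Lys, -0.662 to -0.198 for tRNA-Ser-AGY and -0.0802 to 0.572 for tRNA-Thr. Other denominators left each ratio on the same side of 0.05. The difference in summed CPM, -0.295, ran from -0.567 to 0.114 without each library and was 0.114 without saline replicate 4. Without tRNA-Gly it was -0.503, from 4.55 ± 0.753 CPM with oxytocin and 5.05 ± 0.972 CPM with saline (SD over 5 libraries). Groups overlapped there too, and saline replicate 4 was again the highest library, at 6.63 CPM.

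Replicate numbers only follow accession order. No paired analysis was possible because the labels give the fetuses no shared numbers. Depth limits tRNA-Asp, tRNA-Lys, tRNA-Thr and tRNA-Ser-AGY most, with at most 13 reads per library.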
